A study of Mus musculus with 90 samples.

Results

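The genes described here encode parts of the motile cilium and of intraflagellar transport. They were taken by name from the table of all measured genes: the axonemal dynein genes (symbols beginning with Dnah, Dnai or Dnal), the cilia and flagella associated proteins (Cfap), the radial spoke genes (Rsph), the tektins (Tekt), the intraflagellar transport genes (Ift), the dynein regulatory complex genes (Drc), and Deup1, Mcidas, Ccno and Tmem212. These were 87 of 19962 genes: 13 dynein heavy chains, 7 dynein intermediate and light chains, 35 Cfap genes, 6 radial spoke genes, 5 tektins, 14 Ift genes, 3 Drc genes and the 4 genes named singly. Expression was measured in mouse brain with GeoMx Digital Spatial Profiling, in which light frees the barcodes of hybridised probes from a chosen area of interest (AOI) of a section, and the barcodes are counted by sequencing. The sections were 5 µm thick and came from tissue fixed in formalin and embedded in paraffin. There were 90 AOIs from 10 mice, of which 6 had been exposed to chronic social stress (CSS) and 4 were controls. AOIs lay in the choroid plexus (CP), in the hippocampal fields CA1 and CA3, and in 2 cortical areas, the motor cortex (MC) and the somatosensory cortex (SS). Each was labelled p16 high (46 AOIs) or p16 low (44 AOIs). The p16 protein, which stops the cell cycle, is a widely used mark of senescence. No source used here gives the strain, sex or age of the mice, or how the p16 label was set. No genotype or drug is named, so the groups are told apart by stress exposure, subregion and p16 label alone.

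A motile cilium is built on an axoneme of microtubule doublets around a central pair. Dynein arms on the doublets slide them against each other, and the radial spokes and the nexin-dynein regulatory complex turn that sliding into a controlled beat. Intraflagellar transport carries building blocks along the axoneme in every cilium, also in the single primary cilium of neurons and astrocytes, whereas dynein arms and radial spokes belong to motile cilia. In the brain, cilia with these parts are found on ependymal cells, which line the ventricles. The epithelial cells of the choroid plexus, which secrete cerebrospinal fluid, also bear cilia, whose structure and motility were not examined here. Transcription of ciliary genes depends on Foxj1 and on the RFX factors, which bind a sequence called the X-box.

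There were 16 CP AOIs, 9 from 5 CSS mice and 7 from 4 control mice. CSS mouse 1169 had no CP AOI, and CSS mouse 1163 and control mouse 1182 had a p16 high CP AOI only. The other 74 AOIs lay in the hippocampus and the cortex. The deposited values are a signal with the same median over genes, 22.067, in every AOI. Total counts, estimated from the steps of the values, ran from 184469 to 2098984 per AOI. In 34 of the 90 AOIs no gene was at 1 count, and the step rests there on higher multiples alone. The table holds 1 negative control probe, which has no target and shows the background. Its mean signal was 13.59 in CP AOIs, 13.75 in hippocampal AOIs and 16.15 in cortical AOIs. The CP AOIs carried the markers of their tissue: of 18 markers of the choroid plexus epithelium, 17 were higher there than in the other subregions and 0 lower, and all 9 neuronal markers were lower. The mean signal of Ttr, the transthyretin gene that marks this epithelium, was 77946 in CP and 73.4 elsewhere.

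The sequences that follow show the X-box in promoters of these genes. RefSeq gene entries on GRCm38.p6 matched 84 of the 87 genes, and 71 had a promoter window, from 250 bases before to 50 bases after the annotated start. The X-box consensus, searched by its usual degenerate form of 14 positions on both strands, was found in 6 of the 71 (8.45%), against 215 of all 27025 genes with a window (0.8%). Some genes have more than 1 annotated start, on average 1.11 windows per cilium gene and 1.22 per gene overall. Each line gives 30 bases on the strand of the gene, with the X-box in capitals.
Cfap44: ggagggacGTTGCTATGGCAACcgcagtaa
Cfap298: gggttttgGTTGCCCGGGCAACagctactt
Cfap45: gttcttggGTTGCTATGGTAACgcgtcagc
Ift57: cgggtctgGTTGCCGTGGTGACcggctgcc
Ccno: gggctgcgGTTGCCACGGTGACgacagacg
Cfap20dc: gcccctcaGTTGCCTGGGCAACggctcagc

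Positions count from the annotated start, with negative numbers upstream, and give the first base of the capitals. In Cfap44 they lie at chr16:44394772-44394785 on the plus strand, from position -27. In Cfap298 they lie at chr16:90935024-90935037 on the minus strand, from position -188. In Cfap45 they lie at chr1:172521111-172521124 on the plus strand, from position -19. For Ift57 the site is chr16:49699207-49699220 on the plus strand, from position -87. For Ccno it is chr13:112987583-112987596 on the plus strand, from position -219. For Cfap20dc it is chr14:8666379-8666392 on the minus strand, from position -102. Each lies inside its promoter window, upstream of the annotated start. The gene entry of Cfap44 begins further upstream, so its site lies inside that entry, while the other 5 sites lie outside the entries of their genes. Cfap44, Cfap298, Cfap45 and Ift57 were higher in CP by the test below, and Ccno and Cfap20dc were not called. The consensus was thus found in 4 of the 41 genes higher in CP with a window (9.76%), and in 2 of the other 30 (6.67%). A link between the X-box and the level in CP was not tested.

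A shorter core of the X-box, GTTGCCA on either strand, was found in 17 of the 71 genes with a window (23.94%), against 5.02% of all genes. In Cfap44 and Ccno it lies inside the consensus match. Among these genes, 10 of the 41 higher in CP (24.39%) held the core in a window, and 7 of the other 30 (23.33%). These shares were close to each other. A match nearest to the start is shown for a tektin and a Drc gene, both higher in CP, with the core in capitals. In Tekt1 it lies at chr11:72361891-72361897 on the minus strand, from position -15. In Drc1, a plus strand gene, it lies at chr5:30281381-30281387 from position -12, and the core reads on the opposite strand. Both sites lie inside the gene entry, which begins at another start further upstream.
Tekt1: gcgtccgtccgGTTGCCAtagagaccgcag
Drc1: ctgctttccctTGGCAACggcttgttccta

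The forkhead site TGTTTAC was found in 4 of the 71 genes (5.63%) and in 4.05% of all genes. These matches describe the letters of the windows and show no binding.

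Many cilium genes were higher in the choroid plexus than in the other subregions, and the largest single differences were those of structural genes of the axoneme. Drc7 and Drc3 of the dynein regulatory complex, Rsph1, Rsph9 and Rsph4a of the radial spokes, the dynein heavy chain Dnah6, the tektin Tekt1 and the Cfap genes Cfap44, Cfap126, Cfap69 and Cfap65 were 3.0-fold to 11.9-fold higher in CP. Intraflagellar transport genes had no log2 difference above 1.13. Their median of 0.6 was above those of the dynein heavy chains (0.236), tektins (0.357) and Cfap genes (0.544). It was below those of the Drc genes (1.585), radial spoke genes (1.148) and intermediate and light chains (0.9). The multiciliated cell genes Mcidas, Ccno and Deup1 were not called in this comparison and lay near the negative probe. In 9 mice with both kinds of AOI, 54 of the 87 genes (62.1%) were higher in CP and 2 were lower, by limma on log2(signal + 1) with the mouse as a block and a Benjamini-Hochberg adjusted p under 0.05 over all genes. Over all 19962 genes tested, 20.6% were called higher and 19.6% lower. The median log2 difference was 0.53 for the cilium genes and -0.03 for all genes. A bulk AOI cannot tell more cells of a type from more RNA per cell.

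Of the 54 genes called higher, 45 were higher in each of the 9 mice. For 11 genes every CP AOI lay above every other AOI: Drc7, Rsph1, Rsph4a, Cfap44, Cfap126, Cfap69, Cfap52, Dnah6, Dnai4, Dnali1 and Tekt1. The difference was above 1 on the log2 scale for 25 genes and above 2 for 3 genes. Against CA1, CA3, MC and SS each alone, a comparison added after seeing the data, 43 of the 54 passed every time. The other 11 were Cfap20, Cfap221, Cfap299, Cfap36, Cfap47, Cfap53, Cfap61, Dnah2, Ift20, Ift57 and Tekt5. In the other subregions 45 of the 54 had a mean signal of at most 2 times the negative probe, so their level there was near the background.

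**Figure D1:**
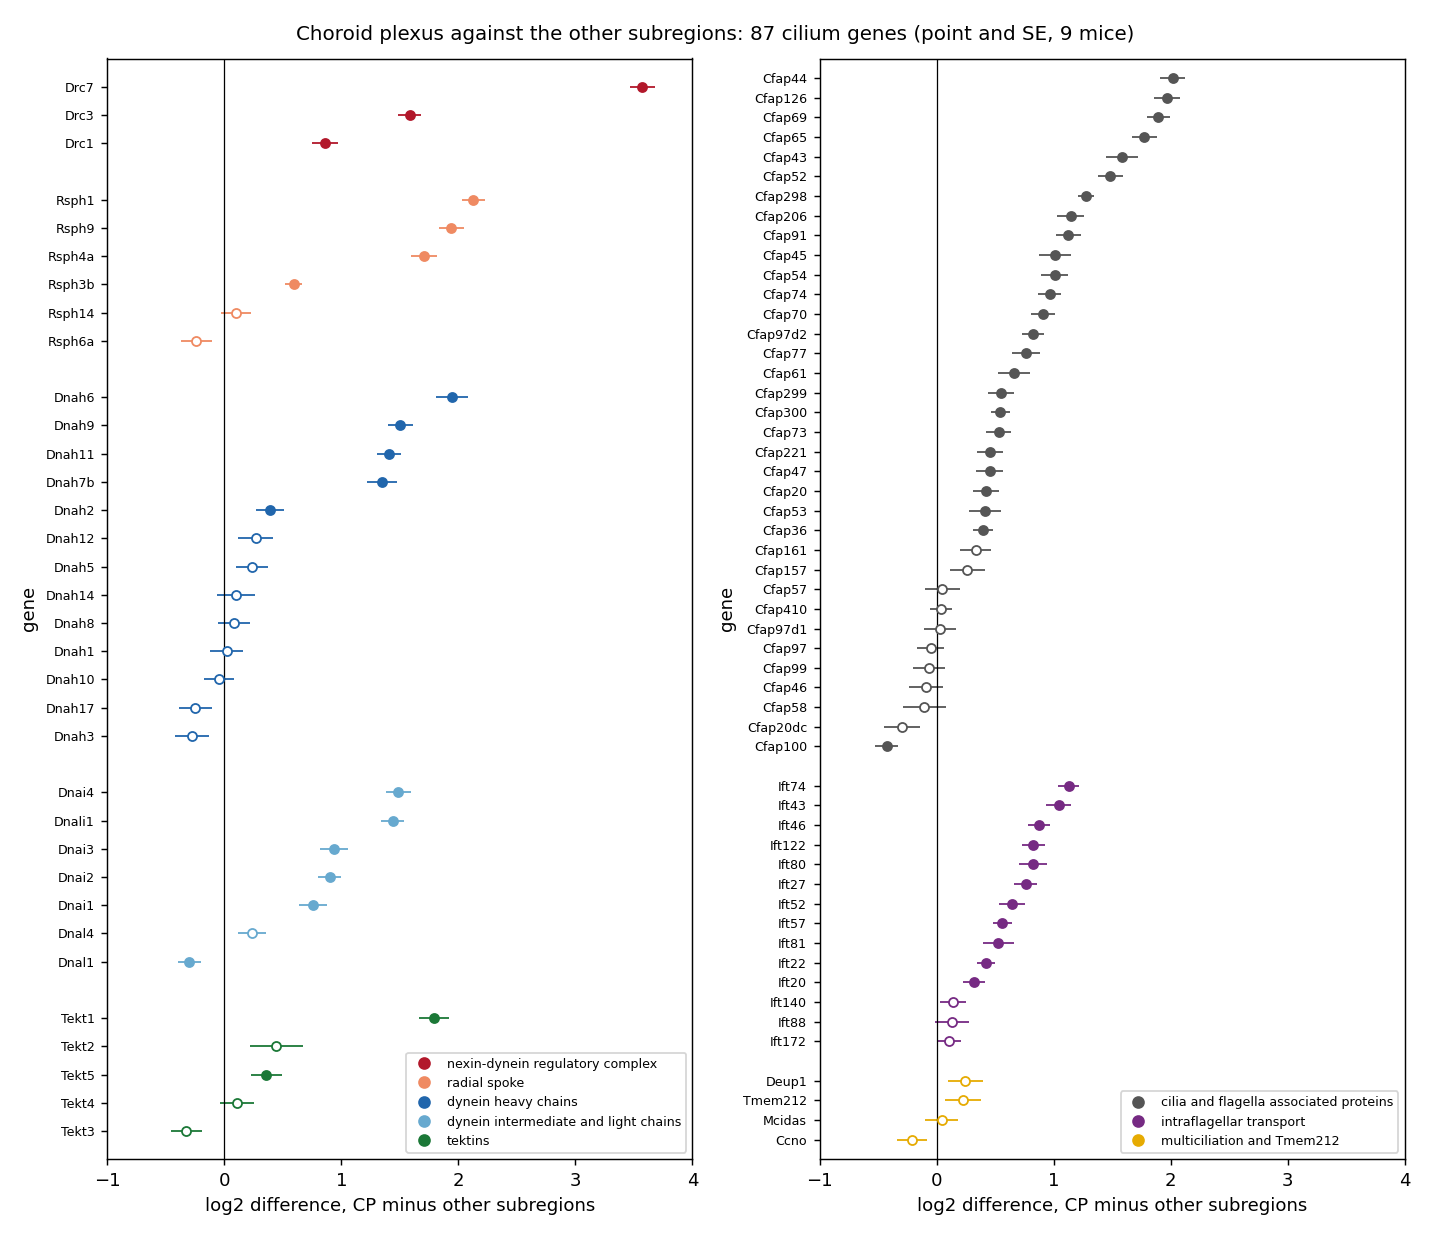
Log2 difference between CP and the other subregions for the 87 genes, grouped by role; points are the estimates over 9 mice, bars are 1 SE, and filled points passed the test. Drc7 stands alone at 3.57, most radial spoke, Cfap and Ift genes lie to the right of 0, and the 4 genes of the last group lie near 0 and are open.

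The nexin-dynein regulatory complex links neighbouring doublets and regulates the dynein arms, and all 3 of its measured Drc genes were higher in CP. Drc7 had a CP signal of 279, 308, 172 and 234 in control mice 1151, 1168, 1175 and 1182. In CSS mice 1152, 1157, 1162, 1163 and 1170 it was 197, 246, 269, 228 and 228. In the other subregions the same 9 mice had values from 15.06 to 24.95, so that the groups of values were far apart. The mean over mice was 240 ± 41.6 (SD, n = 9) in CP, and 17.8 ± 4.99 in CA1, 22.2 ± 5.63 in CA3, 21.6 ± 5.14 in MC and 19.0 ± 3.32 in SS (SD, n = 10 each). The 4 levels outside CP overlapped within their SD. The log2 difference was 3.57 (SE 0.11, limma adjusted p = 8.65e-16), and the CP mean was 18.1 times the negative probe. Drc3 was higher by 1.58 (SE 0.10) and Drc1 by 0.86 (SE 0.11), both in all 9 mice.

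Radial spokes reach from the doublets to the central pair. Rsph1, Rsph4a and Rsph9 encode proteins of the spoke head, and Rsph3b a protein of the stalk. Rsph1 had a CP signal of 60.89 to 97.6 over the 4 control mice and of 77.09 to 91.94 over the 5 CSS mice, against 16.35 to 21.21 over the 9 mice elsewhere. Its log2 difference was 2.13 (SE 0.10, limma adjusted p = 3.71e-13). Rsph9 was higher by 1.94 (SE 0.11), with 1 CP AOI, at 47.8, inside the range of the other AOIs, which reached 50.02. Rsph4a was higher by 1.70 (SE 0.11) and Rsph3b by 0.59 (SE 0.07). Rsph3b also had a signal of 38.0 to 53.6 in the other subregions, well over the background. Rsph14 (0.10, SE 0.13) and Rsph6a (-0.24, SE 0.13), of which Rsph6a is known from sperm, did not pass the test.

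Dynein heavy chains are the motors of the arms, and 5 of 13 were higher in CP and 0 lower. Dnah6, an inner arm motor, had a CP signal of 57.65 to 99.3 in control mice and of 57.7 to 103 in CSS mice, against 15.24 to 24.82 elsewhere. It was higher by 1.94 (SE 0.13, limma adjusted p = 2.02e-10). Dnah9 (1.5, SE 0.11) and Dnah11 (1.41, SE 0.10), which encode outer arm motors of the same type, were higher in all 9 mice. Dnah7b, an inner arm motor, was higher by 1.35 (SE 0.13); it has close copies in the mouse genome, and how its probe separates them is not known here. Dnah2, an inner arm motor, was higher by 0.39 (SE 0.12). The partner of Dnah9 and Dnah11 in the outer arm, Dnah5, gave 0.24 (SE 0.14, limma adjusted p = 0.21), with a CP mean of 1.42 times the negative probe. The other 7 uncalled heavy chains, Dnah12, Dnah14, Dnah8, Dnah1, Dnah10, Dnah17 and Dnah3, ran from -0.28 to 0.27, with CP means of 0.88 to 1.49 times the negative probe. These values do not show that the genes are unexpressed.

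Intermediate and light chains are further subunits of the dynein arms, and 5 of 7 were higher in CP. Dnali1, an inner arm chain, had a CP signal of 37.22 to 51.49 over the 9 mice and of 13.19 to 20.74 elsewhere, without overlap. Its log2 difference was 1.44 (SE 0.10, limma adjusted p = 3.14e-10). Dnai4 was higher by 1.49 (SE 0.11) and Dnai3 by 0.94 (SE 0.12). The outer arm chains Dnai2 and Dnai1 were higher by 0.90 (SE 0.10) and 0.76 (SE 0.12). Dnal4 gave 0.23 (SE 0.12) and did not pass. Dnal1, an outer arm light chain, was lower in CP by the test, at -0.30 (SE 0.10, limma adjusted p = 0.0166), and in 8 of 9 mice. The call for Dnal1 was lost without mouse 1157 (adjusted p = 0.0518), without mouse 1162 (0.0598), and against the cortex alone (-0.01, adjusted p = 0.943). Its highest level was in CA1, at 70.6 ± 15.8 (SD, n = 10), against 39.8 ± 9.04 (SD, n = 9) in CP.

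Tektins form filaments along the doublets, and Tekt1 and Tekt5 of the 5 were called higher. Tekt1 had a CP signal of 33.16 to 56.27 in control mice and of 26.97 to 58.17 in CSS mice, against 11.12 to 14.63 elsewhere, and was higher by 1.79 (SE 0.13, limma adjusted p = 2.85e-10). Elsewhere its mean was 0.83 times the negative probe, at the background. Tekt5 (0.36, SE 0.13, adjusted p = 0.0386) was near the threshold, and its call was lost without any of 6 mice (1151, 1152, 1157, 1162, 1163, 1170), with adjusted p from 0.0505 to 0.118. Tekt2 (0.44, SE 0.23), Tekt4 (0.11, SE 0.14) and Tekt3 (-0.33, SE 0.13, adjusted p = 0.0525) did not pass.

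The Cfap family holds proteins of many parts of the axoneme, and 24 of 35 were higher in CP, 1 was lower and 10 did not pass. Cfap44, a protein that tethers an inner dynein arm, had CP signals of 101, 97.0, 65.4 and 77.2 in control mice 1151, 1168, 1175 and 1182. In CSS mice 1152, 1157, 1162, 1163 and 1170 it had 72.0, 84.1, 92.2, 101 and 114. Elsewhere the same mice had 19.03 to 24.0, and the log2 difference was 2.02 (SE 0.10, limma adjusted p = 2.75e-12). Its partner Cfap43 was higher by 1.58 (SE 0.14). Cfap126 (1.97, SE 0.11), Cfap69 (1.90, SE 0.10) and Cfap65 (1.77, SE 0.11) followed Cfap44, with Cfap69 and Cfap65 known from the central pair and from sperm tails. Cfap52 (1.48, SE 0.11) and Cfap45 (1.01, SE 0.14), which are found inside the doublets, were higher too. Cfap298, which is needed for dynein arm assembly, was higher by 1.28 (SE 0.07), and was also well over the background elsewhere, at 3.60 times the negative probe. Cfap53 (0.41, SE 0.14) was the only called Cfap gene to lose its call when 1 mouse was left out, mouse 1163 (adjusted p = 0.0576).

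Cfap100, which is known to work with Cfap73 as an anchor of inner dynein arms, was the one Cfap gene called lower in CP, at -0.43 (SE 0.10, limma adjusted p = 9.75e-04) and in all 9 mice. Its mean was 20.3 ± 2.84 (SD, n = 9) in CP, 48.3 ± 8.38 in CA1, 26.2 ± 5.21 in CA3, 22.6 ± 7.18 in MC and 22.6 ± 3.78 in SS (SD, n = 10 each). CA1 was high, and CP, CA3, MC and SS overlapped within their SD. Against the cortex alone the difference was -0.09 (adjusted p = 0.551), and against the hippocampus alone it was -0.77 (adjusted p = 6.67e-06). Cfap73 was higher in CP by 0.53 (SE 0.11).

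Intraflagellar transport trains are made of complex A, which works mainly in return transport, and complex B, which carries cargo outward. Of 14 Ift genes, 11 were higher in CP and 0 lower, and all 14 estimates were above 0, from 0.11 to 1.13. Ift74, of complex B, had CP signals of 55.1, 57.0, 36.6 and 60.7 in control mice 1151, 1168, 1175 and 1182. In CSS mice 1152, 1157, 1162, 1163 and 1170 it had 46.4, 46.6, 59.1, 46.6 and 55.2. Elsewhere the same mice had 21.14 to 26.55, without overlap, and the difference was 1.13 (SE 0.09, limma adjusted p = 1.87e-09). Its complex B partner Ift81 was higher by 0.53 (SE 0.13), and Ift46, Ift80, Ift27 and Ift52 of the same complex by 0.88, 0.82, 0.76 and 0.64. Of complex A, Ift43 (1.04, SE 0.11) and Ift122 (0.83, SE 0.10) were higher, and Ift140 (0.14, SE 0.11) did not pass. Ift88 (0.13, SE 0.15) and Ift172 (0.11, SE 0.10), both of complex B, did not pass either. Ift20, which also works at the Golgi apparatus, was higher by 0.32 (SE 0.09), but against the hippocampus alone it gave 0.02 (adjusted p = 0.924), with a mean of 63.4 ± 10.99 in CA1 and 51.2 ± 11.3 in CP.

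The last group holds genes of the multiciliated cell. Mcidas and Ccno act early, when such a cell multiplies its centrioles, and Deup1 is a part of the deuterosome, on which centrioles form. All 4 genes of the group stayed uncalled, and 0 of them had an unadjusted p under 0.05. Deup1 had a CP mean of 18.1 ± 4.3 (SD, n = 9) and a difference of 0.24 (SE 0.15, limma adjusted p = 0.225). Tmem212, known as an ependymal marker, had 13.7 ± 2.4 and a difference of 0.22 (SE 0.15, adjusted p = 0.283). Mcidas had 16.3 ± 4.7 and a difference of 0.04 (SE 0.14), and Ccno 14.9 ± 4.0 and -0.21 (SE 0.13). The CP means were 1.37, 1.01, 1.21 and 1.10 times the negative probe for Deup1, Tmem212, Mcidas and Ccno. When signals were divided by the negative probe of their AOI, Deup1 passed at 0.42 (adjusted p = 0.0489). It was 1 of 7 genes called higher on that scale and not on the deposited one. The others were Cfap157, Cfap161, Dnah12, Dnah5, Dnal4 and Ift172. The mean negative probe was 13.59 in CP, 13.75 in hippocampal and 16.15 in cortical AOIs. Its part in these calls was not tested, and the share of all genes called on that scale is not given here.

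**Figure D2:**
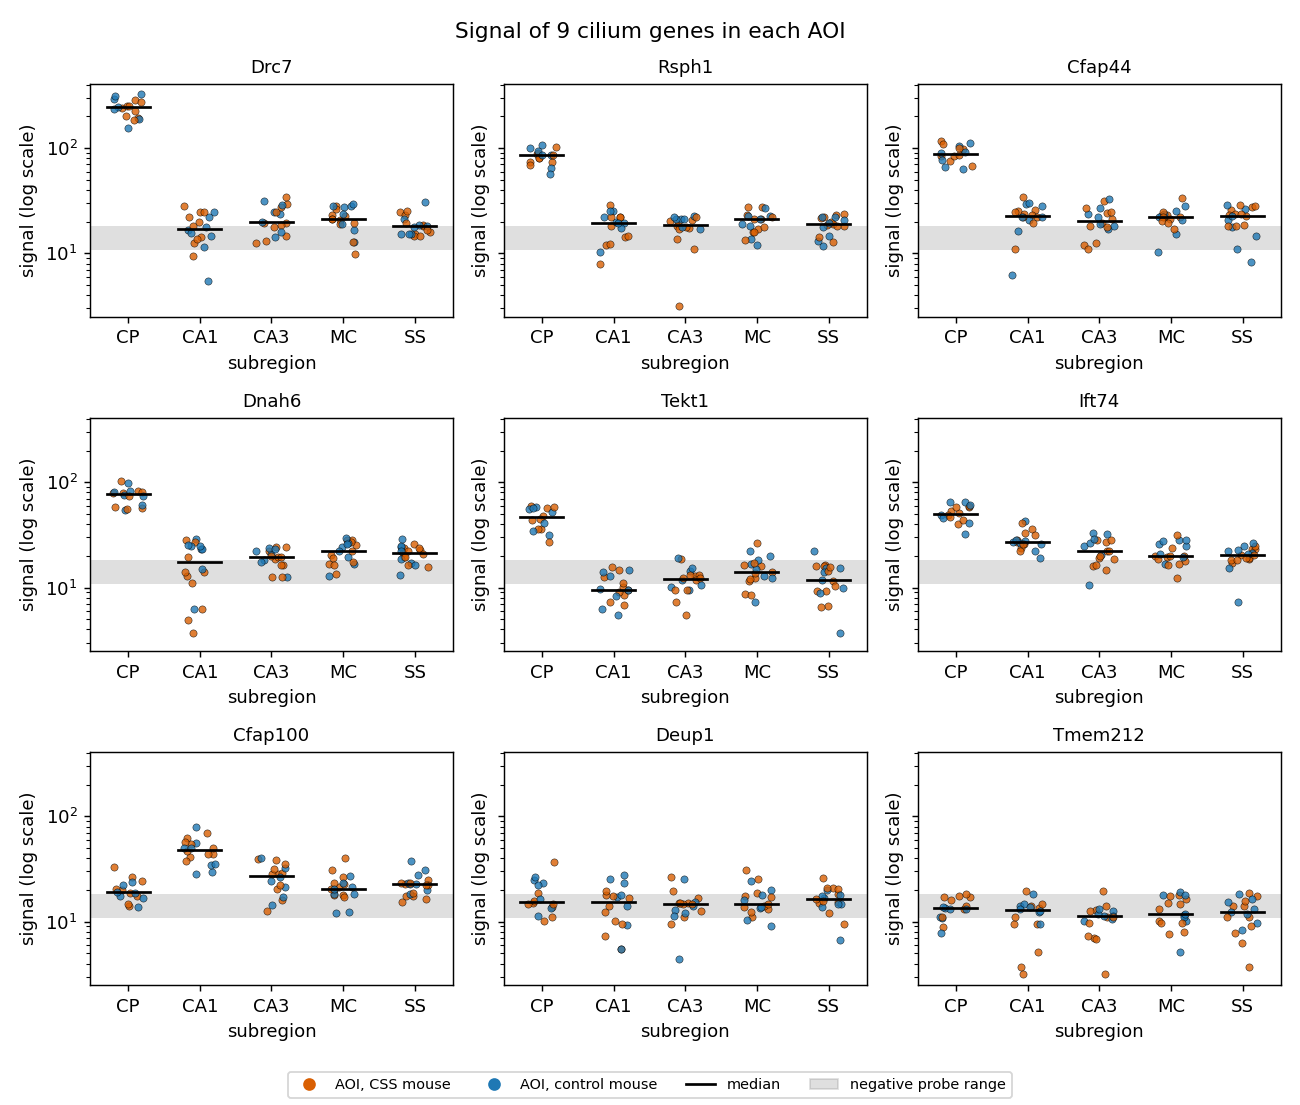
Signal of 9 genes in each AOI by subregion, on a log scale, with the median as a bar and the range of the negative probe over all AOIs in grey. Drc7, Rsph1, Cfap44, Dnah6, Tekt1 and Ift74 are high in CP in both CSS and control mice, Cfap100 is highest in CA1, and Deup1 and Tmem212 lie in or near the grey band everywhere.

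More cilium genes rose over the background in CP than elsewhere. In CP, 52 of 87 (59.8%) had a mean above 2 times the negative probe, and in the other subregions 13 (14.9%). For all 19962 genes the shares were 37.4% and 34.3%. Of the 31 uncalled genes, 27 had a CP mean of at most 2 times the negative probe. The summed signal of the 87 genes ran from 2788 to 4052 over CP AOIs (median 3630) and from 1475 to 2650 over the other AOIs (median 1915), without overlap.

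**Figure D3:**
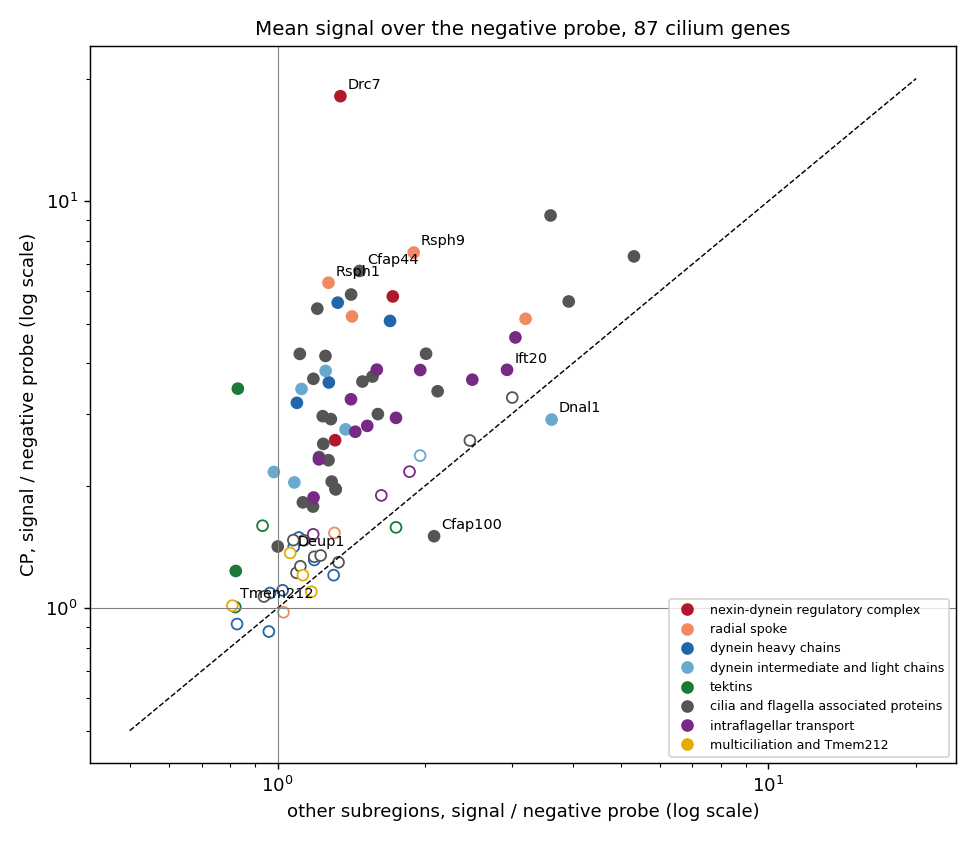
Mean signal over the negative probe in CP against that in the other subregions for the 87 genes, on log scales; filled points passed the test of CP against the other subregions, and the dashed line marks equal values. Most filled points lie far above the line at 1 to 2 times the negative probe elsewhere, and Cfap100 and Dnal1 lie below the line.

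Other genes of the cilium, taken from lists of known parts, were counted in the same fit. The central pair and other axoneme genes had 23 of 32 higher in CP, 0 lower and a median of 0.91. Among them were Spag16 (2.44, SE 0.11) and Spag6l (1.66, SE 0.10) of the central pair, Lrrc23 (2.13, SE 0.12) of the radial spokes, and Iqcd (1.67, SE 0.11) of the dynein regulatory complex. Spag6, a close copy of Spag6l, gave -0.22 (SE 0.15). The genes that assemble and dock dynein arms had 10 of 16 higher, 0 lower and a median of 0.38. Odad1, of the docking complex, was higher by 2.72 (SE 0.11), and the assembly factors Dnaaf3 and Zmynd10 by 1.27 (SE 0.10) and 1.09 (SE 0.11).

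Regulators of the ciliary programme had 7 of 22 higher, 0 lower and a median of 0.01. Foxj1 was higher by 3.41 (SE 0.12), Gmnc, which starts multiciliated cell fate, by 1.54 (SE 0.09), Trp73 by 1.22 (SE 0.11), Rfx3 by 1.08 (SE 0.08) and Rfx2 by 0.86 (SE 0.10). The centriole genes Plk4, Cep152, Sass6 and Stil did not pass, with -0.07, -0.13, 0.05 and -0.11, while Cep63, the partner of Cep152, was higher by 0.56 (SE 0.09). The CP means of the uncalled 4 were 1.40 to 1.59 times the negative probe, against 14.8 for Foxj1 and 4.33 for Gmnc.

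Genes of cilia in general went both ways. Motors and further subunits of intraflagellar transport had 8 of 23 higher and 5 lower, with a median of 0.06. The dynein-2 light intermediate chain Dync2li1 was higher by 1.07 (SE 0.09) and Wdr35 of complex A by 1.17 (SE 0.10). The kinesin-2 subunits Kif3c (-2.42, SE 0.15), Kifap3 (-1.32, SE 0.08) and Kif3a (-0.76, SE 0.08), which also work in axons, were lower. The BBSome list had 5 of 13 higher and 1 lower, with Arl6 at 0.78 (SE 0.08). The transition zone and primary cilium list had 12 of 26 higher and 4 lower. In it Tctn2 (1.42, SE 0.12) and B9d1 (1.09, SE 0.09) of the transition zone were higher. Sstr3 (-0.88, SE 0.12) and Adcy3 (-0.80, SE 0.12), which mark the primary cilia of neurons, were lower.

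Markers of other cell types went different ways between CP and the other subregions. Of 13 ependymal markers that are not among the 87 genes, 9 were higher in CP and 2 lower, and their summed signal ran from 721 to 1241 in CP AOIs and from 225 to 542 elsewhere. Foxj1, Pltp (3.51, SE 0.08) and Mia (2.49, SE 0.10) were the highest of them. Hdc and Sntn were at 1.07 and 0.71 times the negative probe in CP, and S100b was lower by the test (-1.5, SE 0.14). Of 9 markers of stroma and vessels, 8 were higher and 1 lower, with sums of 214 to 424 in CP AOIs and of 107 to 199 elsewhere. Neuronal markers summed to 177 to 265 in CP AOIs and to 2251 to 16452 elsewhere. Of 7 astrocyte markers 1 was higher and 6 lower, and of 6 microglia and macrophage markers 0 were called, and 0 had an unadjusted p under 0.05. The part of these cell types in the cilium result was not tested.

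Outside CP the cilium genes differed less. In 10 mice, 18 were higher in the hippocampus than in the cortex and 16 were lower, at rates of 34.4% and 16.7% for all genes. These counts turned with the scaling, and the negative probe differed between these regions as given above. With the 75th percentile as the scale, 8 were higher and 66 lower, and the median of all genes was at -0.37. With signals divided by the negative probe, 29 were higher and 0 lower, and the median of all genes was at 0.21. With quantile normalization, 9 were higher and 9 lower. Under all 4 scalings (the deposited one and these 3), 4 genes were higher in the hippocampus and 0 lower.

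Those 4 genes were Cfap100, Dnah9, Dnal4 and Ift20. Dnah9 was higher in the hippocampus by 0.61 (SE 0.08, limma adjusted p = 7.93e-08), with means of 33.5 ± 5.77 in CA1, 25.8 ± 3.46 in CA3, 17.5 ± 2.56 in MC and 20.4 ± 4.23 in SS (SD, n = 10 each). Its CP mean of 68.6 ± 15.5 (SD, n = 9) was above all of them. Dnal4 was higher by 0.58 (SE 0.09), and its level in CA1, at 36.3 ± 8.16, was near its level in CP, at 32.8 ± 7.74. Dnah9 and Dnal4 also passed in CA1 alone and in CA3 alone against the cortex. Cfap100 (0.63, SE 0.09) and Ift20 (0.60, SE 0.08) passed in CA1 alone, at 1.06 and 0.94, and not in CA3 alone, at 0.19 and 0.27.

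The other 14 genes called higher in the hippocampus were Cfap36, Dnal1, Cfap298, Cfap20, Cfap410, Cfap97, Ift172, Ift57, Rsph3b, Ift140, Ift52, Ift122, Ift46 and Ift74, from 0.28 to 0.76. Of them, 7 are Ift genes. With Ift20, 8 of the 14 Ift genes were called higher in the hippocampus, against 34.4% of all genes. For Ift52, Ift122, Ift46 and Ift74 the sign turned with the 75th percentile scale, and for Cfap20 with quantile normalization. The 16 called lower ran from -0.47 to -0.27, and each of these calls was lost under at least 1 scaling. They were Dnah14, Cfap61, Cfap46, Cfap91, Tekt5, Cfap65, Cfap70, Dnah6, Cfap53, Dnai2, Dnah3, Cfap54, Rsph14, Cfap206, Cfap99 and Cfap161.

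**Figure D4:**
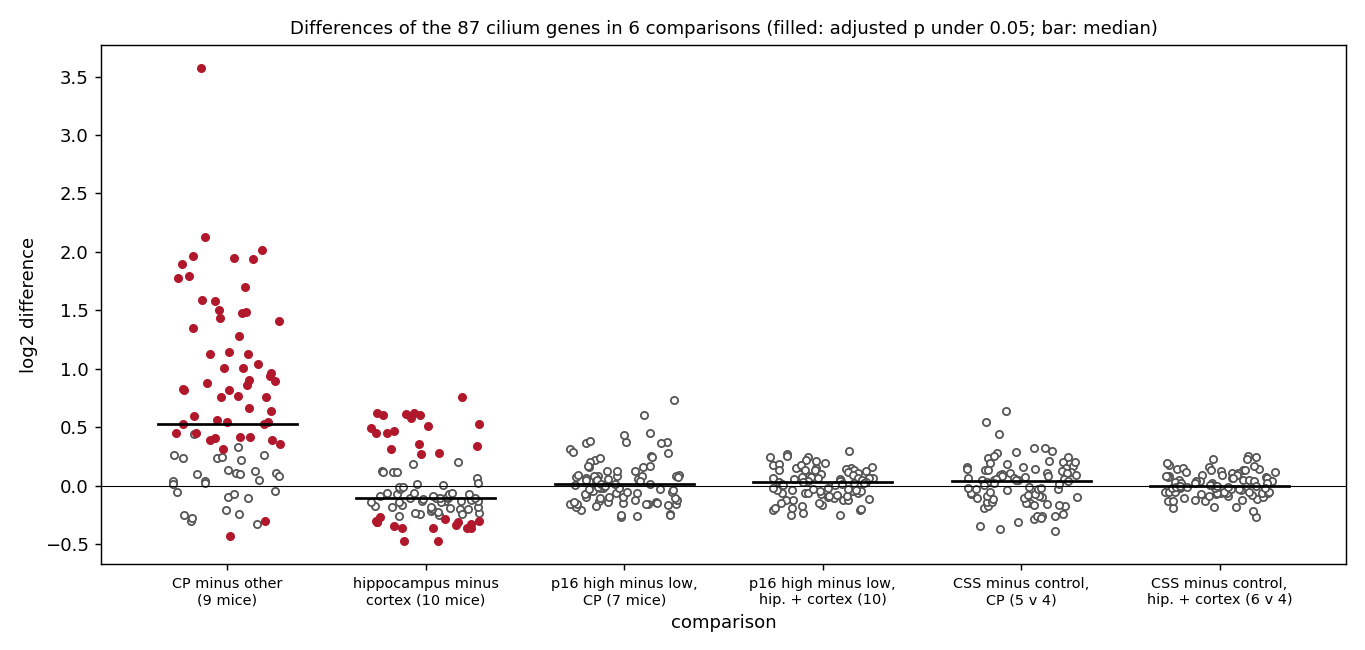
Log2 differences of the 87 genes in 6 comparisons; filled points passed the test, and bars are medians. The spread is wide for CP against the other subregions, with a median of 0.53, and narrow for the p16 and stress comparisons, in which every point is open.

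The p16 label was compared within CP in 7 mice with both a p16 high and a p16 low AOI, 4 CSS and 3 control. By limma 0 of the 87 genes were called, and 0 of all 19962 genes (0%) in either direction. At an unadjusted p under 0.05, 7 cilium genes were higher and 1 lower in p16 high AOIs, against 308 and 738 of all genes. The median over the 87 genes was 0.01. The genes with the largest CP differences showed small ones by p16 label: Drc7 gave 0.04 (SE 0.09, 95% interval -0.15 to 0.22), and Rsph1 0.06 (SE 0.10, -0.15 to 0.28). Drc7 had 246 ± 54.9 in AOIs with the p16 high label and 239 ± 53.5 in those with the low label (SD, n = 7). Cfap69, at 0.16 (SE 0.16, -0.16 to 0.49), had a wider interval.

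Deup1 had the smallest p of the 87 genes in this comparison. In p16 high CP AOIs of control mice 1151, 1168 and 1175 its signal was 26.48, 24.71 and 23.14, and in the p16 low AOIs of the same mice it was 16.55, 13.4 and 11.28. In CSS mice 1152, 1157, 1162 and 1170 it was 15.01, 18.67, 15.76 and 36.78 in the p16 high AOIs, against 13.89, 10.03, 11.03 and 14.71 with the low label. Every mouse was higher in its p16 high AOI, and the log2 difference was 0.73 (SE 0.19, unadjusted p = 0.00113). The limma adjusted p was 0.889, so it did not pass. The negative probe of these AOIs lay at 11.53 to 16.22, and 6 of the 7 p16 low values lay within or under that range. The 2 AOIs of mouse 1170 were the shallowest in CP, with an estimated median of 6 counts per gene. The difference of Deup1 between CP and the other subregions was 0.55 in p16 high AOIs alone and -0.31 in p16 low AOIs alone. These estimates use the same CP values that gave Deup1 the smallest p here, so they add no separate evidence. Over all AOIs the difference was 0.24 and did not pass.

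The next smallest p values belonged to Ift22 (0.37, SE 0.14, higher in 6 of 7 mice), Dnali1 (0.38, SE 0.15, 5 of 7), Dnah1 (0.61, SE 0.25, 6 of 7) and Rsph14 (0.43, SE 0.18, 6 of 7). All of them had an adjusted p of 0.889 and did not pass. The CP mean of Dnah1 was 0.91 times the negative probe. For Dnali1 the differences of single mice ran from -0.26 to 1.29, with mouse 1170, which had the shallowest CP AOIs, highest.

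In the hippocampus and cortex of 10 mice, 0 of the 87 genes were called by p16 label, against 0.386% of all genes higher and 0% lower in p16 high AOIs. At an unadjusted p under 0.05, 7 cilium genes were higher and 2 lower, against 2259 and 569 of all genes. The smallest p values were those of the dynein light chains Dnal1 (0.27, SE 0.07, higher in 9 of 10 mice, adjusted p = 0.082) and Dnal4 (0.30, SE 0.09, 10 of 10, adjusted p = 0.113). Ift172 (0.25, SE 0.09), Cfap36 (0.16, SE 0.06) and Cfap97 (0.18, SE 0.08) came next and did not pass. With signals divided by the negative probe, Dnal1 (0.33), Dnal4 (0.36) and Cfap36 (0.21) passed, with adjusted p of 0.0164, 0.0202 and 0.0301. With genes above the median signal alone, Dnal1 passed (0.27, adjusted p = 0.0422). The share of all genes called in these settings is not given here. In CA1 the mean negative probe was lower in p16 high than low AOIs (12.67 and 13.49 CSS, 12.93 and 13.68 control). In CA3 it was lower too (13.4 and 14.7, 14.6 and 14.9). In SS it was slightly higher (16.22 and 16.21, 15.53 and 15.37). In MC it went both ways (16.6 and 16.4, 16.1 and 16.4). The part of the negative probe in these calls was not tested.

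Stress exposure was compared within CP between 5 CSS and 4 control mice. By limma 0 of the 87 genes were called, and 0% of all genes in either direction. At an unadjusted p under 0.05 there were 0 cilium genes, against 435 higher and 421 lower of all genes. Drc7 was at 234 ± 26.5 (SD, n = 5) in CSS mice and 248 ± 59.3 (SD, n = 4) in control mice, a log2 difference of -0.06 (SE 0.21, 95% interval -0.48 to 0.35). Rsph1 had 83.1 ± 5.86 and 85.1 ± 17.1 (-0.01, SE 0.20), and Ift74 had 50.8 ± 5.97 and 52.4 ± 10.7 (-0.02, SE 0.20). The groups overlapped for each, and the interval for Rsph1 ran from -0.41 to 0.38.

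The smallest p values for stress in CP were those of Cfap46 (0.45, SE 0.23), Tekt2 (0.64, SE 0.38), Ift140 (0.32, SE 0.20), Ift81 (-0.35, SE 0.23) and Cfap61 (0.55, SE 0.36), all with an adjusted p of 0.999. Control mouse 1182, which has 1 CP AOI, had the lowest centred value of the 9 mice for Cfap46, Tekt2, Ift140 and Cfap61. Without it Tekt2 gave -0.015. In the hippocampus and cortex (6 CSS and 4 control mice), 0 of the 87 genes were called and 0 had an unadjusted p under 0.05, with 0% of all genes called. The smallest p values were those of Dnah14 (0.25, SE 0.13), Rsph9 (0.24, SE 0.13), Tmem212 (-0.26, SE 0.15), Dnah17 (0.23, SE 0.13) and Cfap157 (0.23, SE 0.14).

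**Figure D5:**
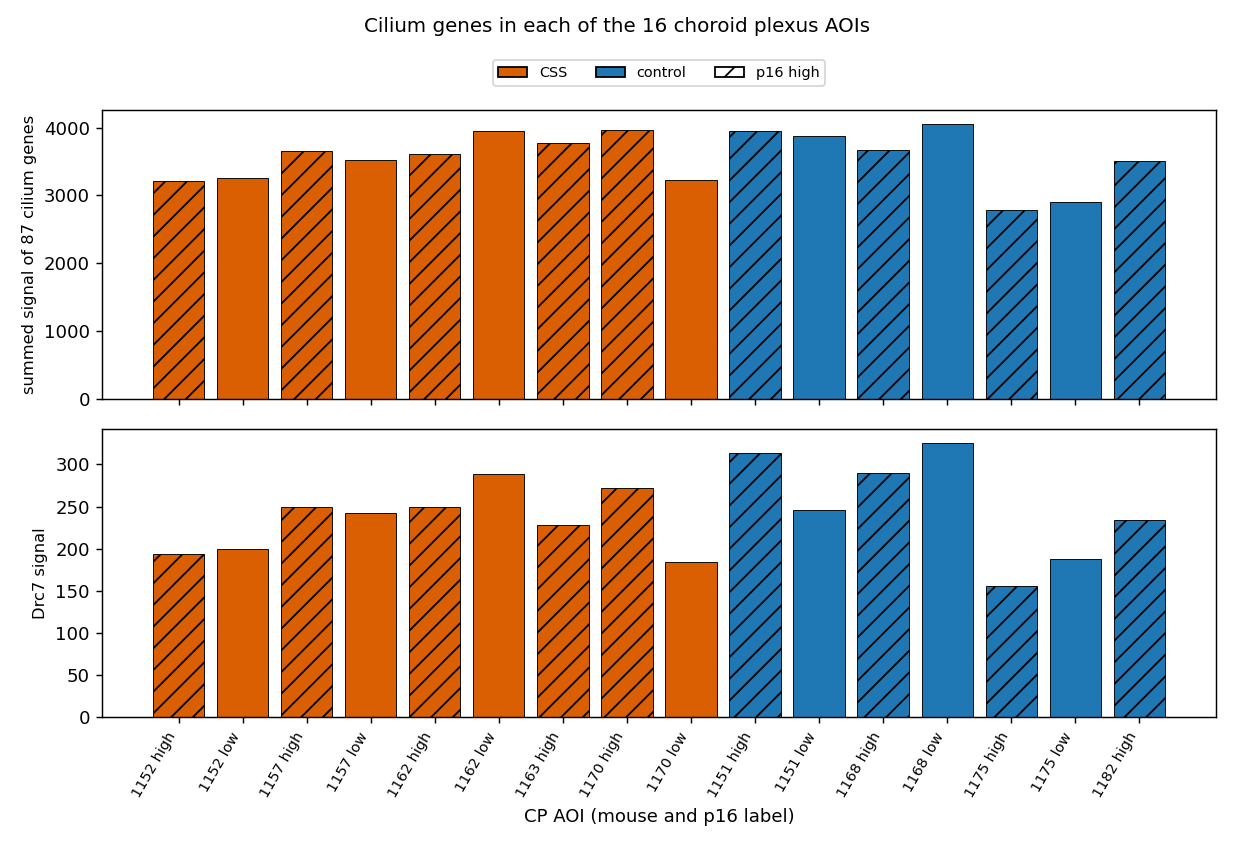
Summed signal of the 87 genes (top) and signal of Drc7 (bottom) in each of the 16 CP AOIs, by mouse, with p16 high AOIs hatched. CSS and control bars overlap, as do p16 high and p16 low bars, and the AOIs of control mouse 1175 are lowest in the sum.

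Over single AOIs the summed signal of the 87 genes ran from 3212 to 3965 in CSS mice and from 2788 to 4052 in control mice, and from 2788 to 3965 in AOIs labelled p16 high and 2903 to 4052 in those labelled low. Both AOIs of control mouse 1175 were lowest, at 2788 and 2903. The same AOIs had the lowest Ttr, at 47331 and 49635, the lowest Foxj1, at 121 and 128, the lowest ependymal sum, at 721 and 767, and the highest negative probe, at 16.2 and 16.1. The part of these in the low sum was not tested. Of CSS mouse 1170, the p16 high AOI had a sum of 3965 and the p16 low AOI 3229, the widest gap within a mouse. These were the shallowest CP AOIs, with estimated totals of 241697 and 240980 counts.

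Whether stress changed the CP difference or the p16 difference was tested directly. For the difference between CP and the other subregions (5 CSS and 4 control mice), 0 of the 87 genes and 0% of all genes were called. At an unadjusted p under 0.05, the CP difference in CSS minus control mice was negative for Rsph14 (-0.58, SE 0.20) and Dnah17 (-0.55, SE 0.20) and positive for 0, against 346 higher and 372 lower of all genes. For the p16 difference in CP (4 CSS and 3 control mice), 0 of the 87 genes and 0% of all genes were called. At an unadjusted p under 0.05, Cfap99 (1.61, SE 0.55), Cfap157 (0.88, SE 0.31), Cfap299 (0.72, SE 0.31) and Cfap58 (0.72, SE 0.33) had a p16 difference more positive in CSS mice, against 359 higher and 349 lower of all genes. All adjusted p values of these genes were at 0.999 or above.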

How the data were processed

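The authors deposited 1 table with a signal for each of 19962 genes and 1 negative probe in 90 AOIs. Its values show that the authors scaled every AOI to a common median. Per the submitters' processing notes the build was mm10; no source used here names other tools. In each AOI at least 99.985% of the values were whole multiples, within 0.01, of the value of 1 count. Median counts per gene, estimated from the largest step that fits, were 6 to 82 per AOI. In 34 AOIs no gene was at 1 count, so the step is less certain there, and these counts describe depth only and entered no test.

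The replicate was the mouse, as numbered in the labels. Log2(signal + 1) values were averaged per mouse and side. The test was limma (version 3.58.1; R version 4.3.3) over all genes, 2-sided, with a trended eBayes and Benjamini-Hochberg adjustment, with the mouse as a fixed block in comparisons within mice. A fold change is on this scale and understates changes of low genes. For stress, values were centred within subregion and p16 label. p16 high and low AOIs of a mouse and subregion are paired by the mouse number; their deviations correlated at a median r of 0.082 over 41 pairs, and at 0.027 to 0.512 over 7 CP pairs. Scripts were tested on simulated data. Members, lists and tests were chosen with earlier results of these data known. Named genes are the 4 listed singly, the 10 highest and 5 lowest called with 1 sign in all mice, the smallest p of each role, called members of other comparisons or else the 5 smallest p; further genes were named after their values were seen. Promoters are RefSeq's, on GRCm38.p6.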

Additional observations from a re-analysis of the deposited data

Results flagged for a closer look

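Over the named genes, 74 groups of 4 or 5 mice were tested for a mouse far from the others in CP, and 3 were found, where chance gives about 1 in 20. Deup1 in CSS mouse 1170 had a CP signal of 25.74, against 13.4 to 14.71 in the other CSS mice. Cfap46 in control mouse 1182 had 8.28, against 15.68 to 17.04 in the other control mice. Ift140 in CSS mouse 1163 had 31.87, against 26.0 to 27.58 in the other CSS mice. Mice 1182 and 1163 have 1 CP AOI each, and the CP AOIs of mouse 1170 were the shallowest.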

How the results depend on the processing

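All 54 genes called higher in CP passed under all 4 scalings, 43 against each of CA1, CA3, MC and SS alone (chosen after seeing the data), and 41 in every setting run over all genes. Without each mouse in turn the counts were 52 to 56 higher and 1 to 3 lower (1 without mouse 1157). Without the replicate block, that is without pairing by mouse, they were 54 and 2, with Tekt5 no longer among the first (adjusted p = 0.0514). The count of lower genes was 1 with signals over the negative probe, 5 against CA1 alone (Cfap100, Cfap410, Dnal1, Ift172, Ift20) and 0 against SS alone. Mcidas (0.04) turned sign with a random block (-1.0e-04), against cortex (-0.015), CA1 (-0.010) or MC alone (-0.075), in p16 low AOIs (-0.020), and without mouse 1151 or 1163, with -0.064 to 0.116 without each mouse. Deup1 turned in p16 low AOIs (-0.306). Tekt2 by stress in CP turned without mouse 1182, with -0.015 to 0.916 without each mouse.

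For the hippocampus against the cortex, higher and lower counts were 9 and 9 (quantile), 8 and 66 (75th percentile), 29 and 0 (over the negative probe) and 10 and 6 (CA3 alone, chosen after seeing the data). Lower counts were 6 among genes above the median signal. Without each mouse they were 17 to 19 and 12 to 19. Cfap20 turned with quantile normalization (-0.017), and Ift52 (-0.003), Ift122 (-0.028), Ift74 (-0.070) and Ift46 (-0.068) with the 75th percentile. For p16 in hippocampus and cortex the higher count was 1 among genes above the median signal and 3 over the negative probe, without the share of all genes called there. The causes were not tested. All p16 and stress counts were 0 without each mouse. A count model on recovered counts was planned and not run. Genes near the negative probe limit what could be detected.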
